A study of Mus musculus with 65 samples.

Results

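The change in nascent transcription between 30 min and 1 h of treatment with A485, an inhibitor that blocks the catalytic site of the acetyltransferases p300 and CBP, was measured by PRO-seq in MEL cells. MEL is a mouse erythroleukemia line, that is, transformed red cell precursors grown in culture. PRO-seq lets engaged RNA polymerases in isolated nuclei add a biotin-carrying nucleotide to their transcripts, so that the reads report where polymerase was active and not how much finished RNA had accumulated. The comparison used 5 of the 65 libraries of the series: 3 of A485 at 1 h and 2 of A485 at 30 min, all at 10 µM. They were chosen by their labels and not by any measured value.

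The line, in control and treated cultures alike, expresses Mtg16, a corepressor encoded by Cbfa2t3, with an FKBP tag for degradation and 2 HA tags, and the labels do not say whether the line was 1 clone. Other groups served as comparators. Cells with both 250 nM dTAGV1, a degrader that removes FKBP-tagged Mtg16, and 10 µM A485 gave 3 libraries at 1 h and 2 at 30 min. Cells with 250 nM dTAGV1 alone gave 3 libraries at each of those times. A485 at 15 min and DMSO, the vehicle, gave 3 libraries each. A DMSO library matched in time to 30 min or 1 h was not analysed here. In their library names, the A485 libraries at 30 min and 1 h are numbered 1 to 3, those at 15 min and in DMSO 4 to 6. The libraries with dTAGV1 alone are also numbered 4 to 6. A value set across these groups thus also crosses the 2 sets of numbers. The sample titles letter the A485 libraries A and B at 30 min but D to F at 1 h. The labels therefore do not settle whether these 2 times belong to 1 set of replicates. Nothing in the labels says that replicates were separate cultures, so the p-values measure only the spread between these libraries.

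p300 and CBP are large coactivators that acetylate histone tails, including lysine 27 of histone H3, at enhancers and promoters, and that are brought there by transcription factors. In red cell precursors these factors include GATA1, TAL1, KLF1 and MYB. When initiation at a gene stops, polymerases already on the gene go on to its end, so the read count over a long gene takes longer to drain than that over a short one. The comparison of 1 h with 30 min separates genes whose counts were still falling from genes that held their level and genes whose counts were rising again.

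The 5 libraries held 7453718 to 14686743 reads over annotated transcripts at 1 h and 14179630 to 16851614 at 30 min, with A485 1 h replicate 1 the shallowest of all 28 libraries of the A485 series. The erythroid identity was checked with 10 markers, of which 8 were in the gene table and all 8 had a mean of at least 10 normalized counts in DMSO. Their summed level was 3497 to 3933 normalized counts at 1 h of A485, 3739 to 3786 at 30 min, and 11104 to 11475 in DMSO. The 4 megakaryocyte markers in the table were also expressed, with sums of 454 to 525 at 1 h, 481 to 528 at 30 min and 2757 to 2969 in DMSO. The 3 granulocyte and macrophage markers in the table summed to 71.8 to 97.7 at 1 h and 53.1 to 62.5 at 30 min, and the 2 lymphoid markers to at most 10.9 in any of the 5 libraries. In bulk samples, fewer cells of a type and less RNA per cell cannot be told apart. Values are the authors' normalized counts, and whether their scaling keeps a change common to all genes is not given in the sources used here.

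Between 30 min and 1 h, 1285 of 12597 tested genes fell (10.2% of those tested) and 1002 rose (7.95%), by limma on log2(normalized count + 1) with Benjamini-Hochberg adjustment at 0.05. A gene was tested if its mean over the 28 libraries was at least 10, and all differences below are log2 differences, 1 h minus 30 min, unless named otherwise. The falls reached further than the rises, with a median of -0.32 over the genes that fell and 0.24 over those that rose, which describes selected genes. The 3 libraries at 1 h did not overlap the 2 at 30 min for 2585 genes that were lower (20.5%) and 2353 that were higher (18.7%). With A485 30 min replicate 1 left out the counts were 691 lower and 537 higher, and with replicate 2 left out 870 and 599. With the libraries scaled to their total reads, the calls were 1101 lower and 1376 higher, so that falls were 44.4% of the calls, against 56.2% with the authors' scaling. The balance of falls and rises thus moved with the scaling.

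**Figure D1:**
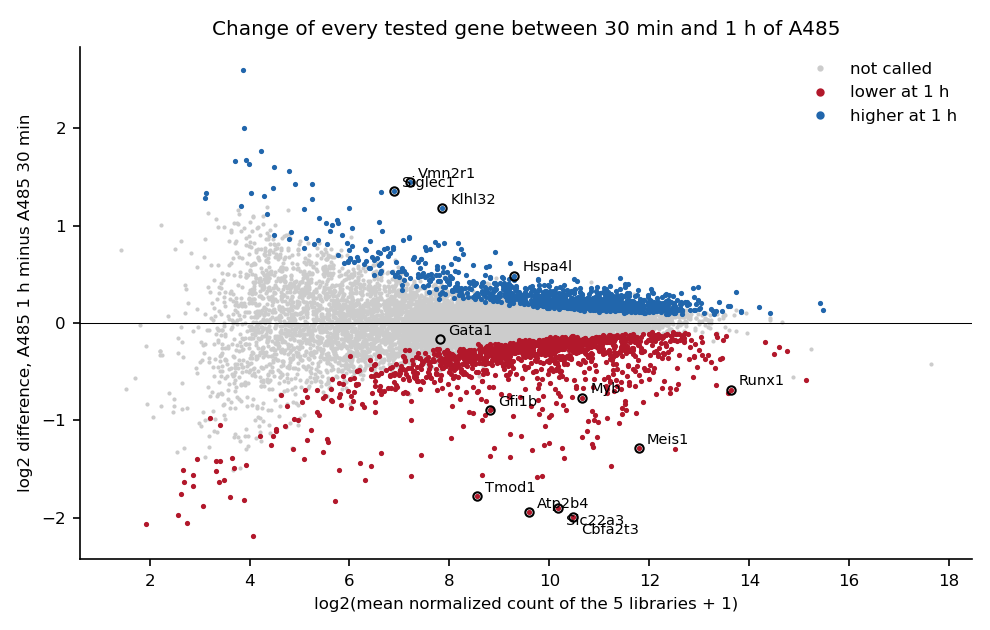
Log2 difference (A485 1 h minus A485 30 min) of every tested gene, against log2 of its mean normalized count over the 5 libraries plus 1. Red points fell, blue points rose, and grey points did not pass the test. The 12 largest falls have a median of 388 normalized counts and the 12 largest rises a median of 97.0.

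The gene with the largest fall among those with a mean of at least 50 was Cbfa2t3, the gene of the tagged corepressor itself. It had 899, 490 and 598 normalized counts in the 3 libraries at 1 h, against 2790 and 2338 at 30 min. Every library at 1 h lay below both at 30 min, and the difference was -1.99 ± 0.12 (SE, adjusted p = 5.9e-15). Relative to the DMSO mean its level was 47.4% at 15 min, 22.8% at 30 min and 5.88% at 1 h. The decline thus covered all 3 intervals.

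Slc22a3, an organic cation transporter gene, had 629, 493 and 531 normalized counts at 1 h, against 2172 and 1935 at 30 min, a difference of -1.90 ± 0.06 (SE, adjusted p = 4.6e-21). Atp2b4, a plasma membrane calcium pump gene, had 396, 285 and 403 at 1 h, against 1399 and 1348 at 30 min, a difference of -1.94 ± 0.08 (adjusted p = 2.2e-19). In both genes every library at 1 h lay below both at 30 min. St3gal1, a sialyltransferase gene, had 523, 460 and 465 at 1 h, against 1492 and 1395 at 30 min, a difference of -1.58 ± 0.06. These genes had also been lower than DMSO at 15 min.

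Of the 12 largest falls, 8 had been lower than DMSO at 15 min and 1 higher, and 9 were genes of 60 to 100 kb, a span that holds 9.52% of all tested genes. That span was looked at after the values were seen. Tmod1, which encodes an actin-capping protein of the red cell membrane skeleton, was the one that had been higher at 15 min, at 122% of its DMSO mean. It had 184, 167 and 222 normalized counts at 1 h, against 650 and 650 at 30 min, a difference of -1.77 ± 0.08 (SE, adjusted p = 6.8e-19). Others of the 12 were Sh2d4b (-1.58), Pcyt1b (-1.61), Mylk3 (-1.51), Gpr153 (-1.57) and the uncharacterised loci E030011O05Rik (-1.83) and 4931406H21Rik (-1.47). All 12 kept their call in each alternative fit that was run.

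The 12 largest rises came from weaker genes, with means over the 5 libraries of 52.9 to 230 normalized counts, against 51.4 to 1423 for the 12 falls. Siglec1, which encodes a sialic acid receptor known from macrophages, had 158, 178 and 133 normalized counts at 1 h, against 61.3 and 59.1 at 30 min. All 3 libraries at 1 h lay above both at 30 min, with a difference of 1.35 ± 0.15 (SE, adjusted p = 1.5e-08). Slc6a2, the noradrenaline transporter gene, had 91.9, 90.5 and 59.96 at 1 h, against 35.7 and 33.4 at 30 min, a difference of 1.18 ± 0.26 (adjusted p = 0.0012). Siglec1 stood at 91.4% of its DMSO mean at 1 h, after 39.9% at 15 min and 35.2% at 30 min. Slc6a2 stood at 104% at 1 h, after 29.3% and 44.5% at those times. Both genes were also low at 30 min of dTAGV1 alone, that is, without A485. There Siglec1 had a mean of 79.9 normalized counts, against 170.9 in DMSO, and Slc6a2 25.6, against 77.7. The cause of these low levels was not tested. The summed granulocyte and macrophage markers given above were also higher at 1 h, at low counts, and their part in the Siglec1 value was not tested. In the wider granulocyte and macrophage list, of 11 tested genes 0 fell (against 10.2% of all tested genes) and 0 rose (against 7.95%), with a list median of 0.07.

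Vmn2r1, annotated as a vomeronasal receptor gene, had 201, 170 and 222 normalized counts at 1 h, against 72.7 and 69.7 at 30 min, a difference of 1.45 ± 0.20 (SE, adjusted p = 1.3e-06). It had not been called at 15 min and reached 228% of its DMSO mean at 1 h. Vmn2r18 (1.03), Celsr3 (0.94), A830036E02Rik (1.35), 1700027I24Rik (0.88), Fbxo48 (0.90), Fam174c (1.03), Batf3 (0.98), 4930577N17Rik (1.06) and Klhl32 (1.18) made up the rest of the 12. The calls of Batf3, Klhl32, Fam174c and 4930577N17Rik were lost when A485 30 min replicate 1 was left out, with differences of 1.07, 1.20, 1.00 and 0.57 in that order in that fit. In Klhl32 the replicates at 1 h themselves spanned 165 to 465 normalized counts, and its call was lost in 7 of the 15 alternative fits.

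Because the 15 min and DMSO libraries take no part in the difference between 1 h and 30 min, they can sort genes by their early response. At 15 min, 3692 genes were lower than DMSO (29.3% of those tested) and 3249 were higher (25.8%). Of the 3692 genes that had fallen, 539 fell further between 30 min and 1 h (14.6%, against 10.2% of all tested genes), and 380 rose (10.3%, against 7.95%). A further 2184 (59.2%, against 59.5% of all tested genes) held their level, which means here that they were not called and that the 95% confidence interval of the difference lay within 0.5 log2 units on either side of 0. The remaining 589 were unresolved, with a wider interval. With A485 30 min replicate 1 left out, 356 were still falling and 228 recovering, and with replicate 2 left out 409 and 236.

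Relative to DMSO, the 539 genes still falling had a median level of 72.4% at 15 min, 58.4% at 30 min and 43.2% at 1 h. The 2184 held genes had medians of 74.8%, 72.7% and 72.3% at the same times. The 380 recovering genes had 75.8%, 68.6% and 83.9%. The medians at 30 min and 1 h include the values that define the classes and are given as a description.

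**Figure D2:**
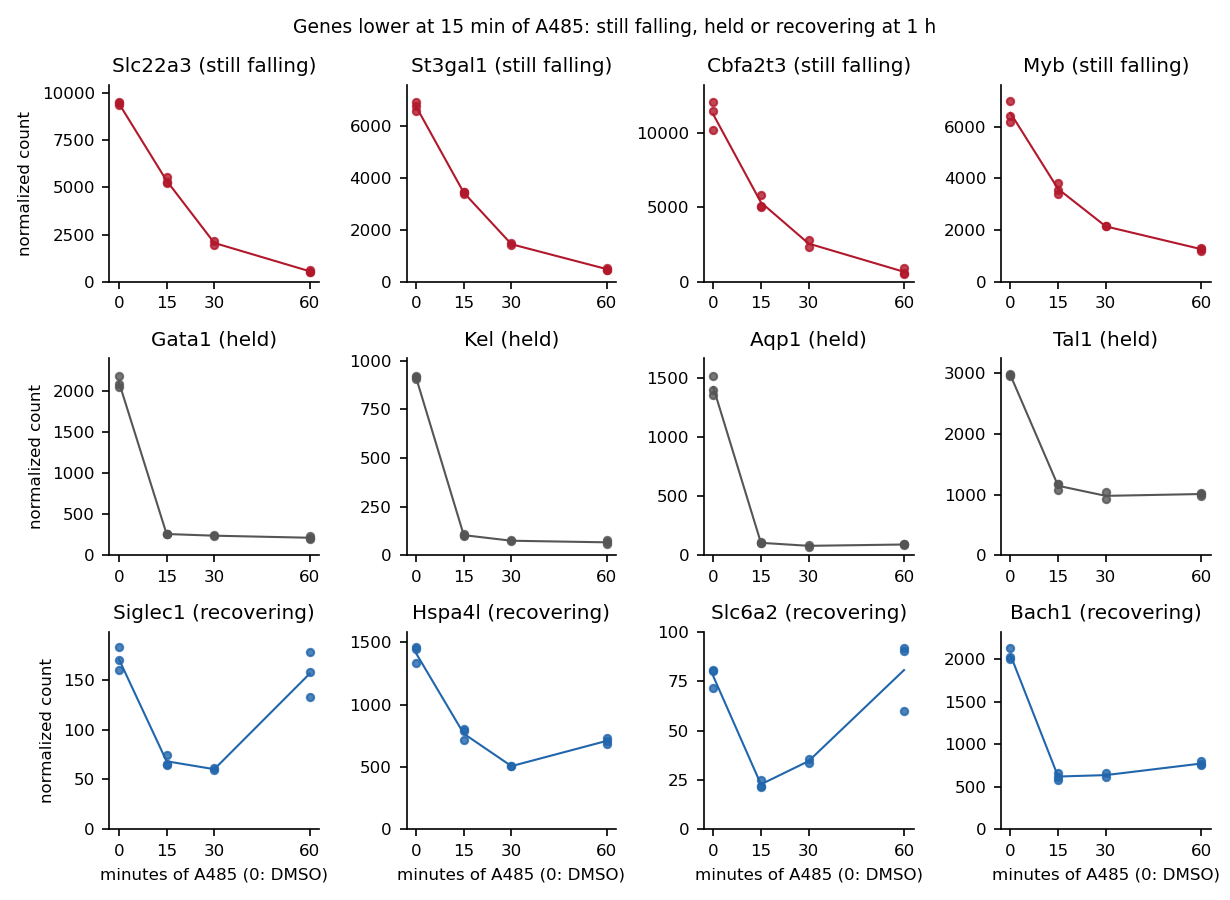
Normalized counts in DMSO (0 min) and after 15, 30 and 60 min of A485 for 12 genes that were lower than DMSO at 15 min. Each point is 1 library, lines join group means, and the rows show genes still falling, held and recovering between 30 min and 1 h.

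Gata1 was among the held genes with the deepest early fall. Gata1, which encodes the zinc finger factor that drives red cell genes, had 235, 195 and 211 normalized counts at 1 h, against 234 and 244 at 30 min, and the groups overlapped. The difference was -0.16 with a 95% confidence interval of -0.36 to 0.04, and its level was 12.3% of DMSO at 15 min, 11.4% at 30 min and 10.2% at 1 h. Kel, the Kell blood group gene, stood at 11.4%, 8.22% and 7.32% of DMSO at the same times, with a difference of -0.18 (interval -0.41 to 0.05). Aqp1, the water channel gene of the red cell membrane, stood at 7.45%, 5.67% and 6.45%, with a difference of 0.19 (interval -0.03 to 0.40).

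Tal1, which encodes a helix-loop-helix partner of GATA1, held a higher level. It had 979, 1017 and 1030 normalized counts at 1 h, against 919 and 1039 at 30 min, or 38.6%, 33.0% and 34.0% of DMSO at 15 min, 30 min and 1 h. Klf1, the erythroid Krüppel-like factor gene, had 187, 224 and 156 at 1 h, against 246 and 191 at 30 min (difference -0.21, interval -0.49 to 0.07). Trim16, Oaf and Adora2b completed the 6 held genes with the deepest early fall, with differences of 0.19, -0.18 and -0.11. In each of these genes the level at 1 h was not distinguishable from that at 30 min.

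Promoter sequences of 4 genes that stand for the classes were taken from RefSeq (build GRCm38.p6, while the authors' tables use mm39) as the 250 bases before each annotated start. Capitals mark GATAA, the core recognised by GATA factors, and CCNCACCC, the CACC-type element recognised by KLF1, each searched on both strands (the other strand reads TTATC and GGGTGNGG). Cbfa2t3, still falling, has 2 annotated starts (chr8:122678176-122678425, minus strand, and chr8:122699110-122699359, minus strand). Gfi1b was also still falling (chr2:28621983-28622232, minus strand), Gata1 was held (chrX:7967911-7968160, minus strand) and Hspa4l was recovering (chr3:40745363-40745612, plus strand).
Cbfa2t3, start 1: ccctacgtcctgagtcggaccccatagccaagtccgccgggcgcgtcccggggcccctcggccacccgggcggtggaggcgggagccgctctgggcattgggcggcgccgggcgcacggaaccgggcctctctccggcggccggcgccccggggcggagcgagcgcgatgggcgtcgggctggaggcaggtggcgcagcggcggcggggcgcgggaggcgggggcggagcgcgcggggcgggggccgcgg
Cbfa2t3, start 2: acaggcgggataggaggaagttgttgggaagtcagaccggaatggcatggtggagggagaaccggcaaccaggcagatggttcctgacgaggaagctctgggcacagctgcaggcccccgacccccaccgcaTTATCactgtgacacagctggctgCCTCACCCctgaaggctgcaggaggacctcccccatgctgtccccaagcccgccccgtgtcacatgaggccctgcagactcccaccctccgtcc
Gfi1b: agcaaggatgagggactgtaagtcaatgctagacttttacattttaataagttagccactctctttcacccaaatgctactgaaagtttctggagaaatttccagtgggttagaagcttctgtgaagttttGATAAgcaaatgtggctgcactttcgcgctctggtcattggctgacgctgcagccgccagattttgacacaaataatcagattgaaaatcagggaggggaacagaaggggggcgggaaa
Gata1: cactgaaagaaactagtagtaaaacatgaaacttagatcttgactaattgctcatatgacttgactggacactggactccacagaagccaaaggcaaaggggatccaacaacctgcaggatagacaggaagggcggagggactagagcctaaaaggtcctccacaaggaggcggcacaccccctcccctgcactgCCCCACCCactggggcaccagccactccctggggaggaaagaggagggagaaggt
Hspa4l: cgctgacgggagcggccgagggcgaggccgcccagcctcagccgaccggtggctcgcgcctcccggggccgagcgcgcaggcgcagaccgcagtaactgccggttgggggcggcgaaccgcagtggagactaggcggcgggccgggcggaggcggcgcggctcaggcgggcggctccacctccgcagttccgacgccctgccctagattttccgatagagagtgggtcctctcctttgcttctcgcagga
GATAA occurs once each in the second Cbfa2t3 window and in the Gfi1b window, and CCNCACCC once each in the second Cbfa2t3 window and in the Gata1 window. Of early fallen genes, 438 of the 539 still falling had a window in the table, 297 of the 380 recovering and 1791 of the 2184 held. GATAA was found in 18.9% of the windows of genes still falling, 16% of those recovering and 14.2% of those held, against 15.0% of the windows of all tested genes and 22.6% of all windows in the table. CCNCACCC was found in 24.4%, 20.2% and 21.2% of the windows of those classes, against 17.9% of the windows of all tested genes. A match is a description of letters, and no test was made of these shares.

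Among recovering genes with higher counts was Hspa4l, an Hsp110-family chaperone gene. It had 732, 708 and 685 normalized counts at 1 h, against 503 and 508 at 30 min, a difference of 0.49 ± 0.08 (SE, adjusted p = 1.4e-05). Its level was 54.3% of DMSO at 15 min, 35.8% at 30 min and 50.2% at 1 h. Bach1, which encodes a heme-sensing repressor, had 764, 796 and 752 at 1 h, against 660 and 610 at 30 min (0.28 ± 0.06), and remained at 37.6% of DMSO. Both genes remained below their DMSO means at 1 h.

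The shares of the classes differed with gene length. Of early fallen genes of 100 to 200 kb, 129 of 288 were still falling (44.8%) and 37 were recovering (12.8%), and over 200 kb 56 of 124 were still falling (45.2%). Among all tested genes of 100 to 200 kb, 23.5% fell and 21.02% rose, and among those over 200 kb 16.4% fell and 15.1% rose. Of early fallen genes of 30 to 60 kb, 71 of 772 were still falling (9.20%) and 139 were recovering (18.01%), against 5.72% and 12.2% of all tested genes of that length. Of those up to 10 kb, 96 of 833 were still falling (11.5%), 19 were recovering (2.28%) and 393 held (47.2%), close to the 9.62%, 1.28% and 45.2% of all tested genes of that length. The lengths are gene spans from RefSeq and the bins were chosen after seeing the data.

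In every length bin the largest median loss of early fallen genes was that between DMSO and 15 min, the interval by which they were chosen. The choice fixes the sign of that median and enlarges it, and the interval from 15 to 30 min shares the 15 min libraries. These medians are thus a description and not a measure of speed. The medians of the later intervals differed between bins. In genes up to 10 kb the median difference was -0.77 for 15 min minus DMSO, 0.06 for 30 min minus 15 min and -0.09 for 1 h minus 30 min. In genes of 60 to 100 kb these medians were -0.35, -0.28 and 0.02, and in genes of 100 to 200 kb -0.30, -0.21 and -0.12. In the separate libraries with dTAGV1 and A485, the same genes of 100 to 200 kb had a median of -0.11 for 1 h minus 30 min, and in those with dTAGV1 alone 0.04. Of early fallen genes of 60 to 100 kb, 75 of 378 were still falling (19.8%, against 9.01% of all tested genes of that length). A further 73 were recovering (19.3%, against 19.8%), a share near that of their length. The quartiles of the early fallen genes of this span ran from -0.14 to 0.12, so that the very large falls of single genes in it are not its typical behaviour.

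**Figure D3:**
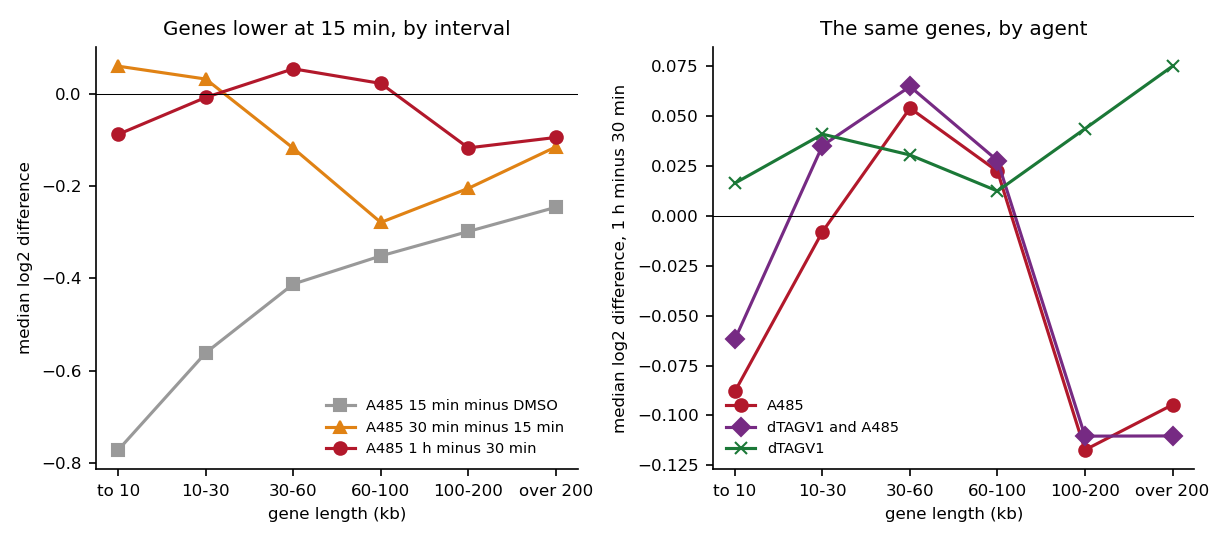
Median log2 difference of genes that were lower than DMSO at 15 min of A485, by gene length in kb. The left panel shows successive intervals of A485, with medians of 1 h minus 30 min near -0.1 above 100 kb, and the right panel shows 1 h minus 30 min with A485, with dTAGV1 and A485, and with dTAGV1.

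Genes that had been higher than DMSO at 15 min had shares of falls and rises near those of all tested genes. The balance of falls and rises over all tested genes moved with the scaling, and it was not counted for this set under the other scalings. Of 3249, 381 fell between 30 min and 1 h (11.7%, against 10.2% of all tested genes) and 192 rose (5.91%, against 7.95%). In those up to 10 kb, 99 of 640 fell (15.5%, against 9.62% of all tested genes of that length) and 2 rose (0.31%, against 1.28%), with a median of -0.13. In those of 60 to 100 kb, 14 of 295 fell (4.75%, against 9.01% of all tested genes of that length). In the same span 62 rose (21.02%, against 19.8%), and the median was 0.08. The 381 that fell had a median of 124% of DMSO at 15 min, 128% at 30 min and 105% at 1 h.

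Among blood transcription factors, 14 of 34 tested genes fell (41.2%, against 10.2% of all tested genes) and 2 rose, with a list median of -0.15, against -0.01 over all tested genes. Besides Cbfa2t3, the falls included Meis1 (-1.28), Sox6 (-1.28), Gfi1b (-0.89), Ikzf1 (-0.88), Zfpm1 (-0.84), Myb (-0.77), Fli1 (-0.73) and Runx1 (-0.68). The 2 rises were Nfe2 (0.31) and Klf13 (0.15). Ikzf1, Zfpm1, Fli1, Nfe2 and Klf13 were picked out after their values were seen. The counts were 14 lower and 1 higher with edgeR and with DESeq2, 14 and 3 with either other scaling, and 12 and 0 with only the 5 libraries in the fit.

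Meis1, a homeobox factor gene of progenitor cells, had 2159, 2147 and 2431 normalized counts at 1 h, against 5457 and 5462 at 30 min, and stood at 84.2% of DMSO at 15 min, 62.1% at 30 min and 25.5% at 1 h. The last interval held the largest loss of the 3. Myb, which encodes a p300-binding factor of immature blood cells, had 1206, 1280 and 1294 at 1 h, against 2139 and 2146 at 30 min, and stood at 54.9%, 32.7% and 19.3%. Runx1, one of the longer genes of the list at 225 kb, had 10680, 9546 and 10361 at 1 h, against 16934 and 15831 at 30 min. The groups did not overlap in any of these genes.

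Myc, the growth regulator gene, is short at 5.02 kb and fell as well. It had 238, 333 and 213 normalized counts at 1 h, against 449 and 532 at 30 min, a difference of -0.93 ± 0.12 (SE, adjusted p = 2.9e-07). Its level was 24.5% of DMSO at 15 min, 16.8% at 30 min and 8.93% at 1 h. Of the 10 tested genes of the Myc and Max network, 2 fell (20%, against 10.2% of all tested genes) and 0 rose (against 7.95%). The 2 were Myc and Mlx (-0.47). Mlx lost the call when A485 30 min replicate 1 (-0.48), A485 30 min replicate 2 (-0.45) or A485 1 h replicate 3 (-0.35) was left out.

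The erythroid and heme list split, with 10 of 45 tested genes lower (22.2%, against 10.2% of all tested genes) and 8 higher (17.8%, against 7.95%). The falls were led by genes of the membrane skeleton: Tmod1 (-1.77), Add2 (-1.36), Ank1 (-1.17), Sptb (-1.01) and Epb41 (-0.61), which are 77.1 to 176 kb long. Alas2 (-1.16), Rhd (-0.65) and Cd44 (-0.49) also fell. The 8 that rose included the heme synthesis and transport genes Fech (0.23) and Abcb10 (0.27), the carbonic anhydrase gene Car2 (0.25), the glycine transporter gene Slc6a9 (0.25) and Trim10 (0.73), with Nfe2 and Xpo7. The counts were 10 lower and 4 higher with edgeR and with DESeq2, and 8 and 2 with only the 5 libraries in the fit. Apart from Tmod1, Add2 and Ank1, these genes were named after their values were seen.

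Add2, which encodes the beta subunit of adducin, had 284, 286 and 253 normalized counts at 1 h, against 708 and 704 at 30 min. Its level was 61.2% of DMSO at 15 min, 17.4% at 30 min and 6.75% at 1 h. Of the globin genes 2 of 12 were tested and neither passed. Hbb-bt had 2.87, 2.87 and 3.63 at 1 h, against 2.55 and 6.07 at 30 min, a level at which a change was not detectable at this depth. Among megakaryocyte and platelet genes 5 of 15 tested fell (33.3%, against 10.2% of all tested genes) and none rose, which included Rab27b (-1.43) and Gp5 (-0.78), and the count was 2 with edgeR and with DESeq2.

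Ribosome biogenesis had the highest share of falls among the larger lists, with 29 of 56 tested genes lower (51.8%, against 10.2% of all tested genes) and 2 higher, Utp20 and Ddx10, which were named after their values were seen. The list median was -0.19. The list median for 15 min minus DMSO was 0.30, and 6 of the 56 genes had been called lower than DMSO at that time. Bop1, which acts in maturation of the large ribosomal subunit, had 930, 793 and 816 normalized counts at 1 h, against 1346 and 1239 at 30 min, a difference of -0.61 ± 0.07 (SE, adjusted p = 4.5e-08). It stood at 151% of DMSO at 15 min, 157% at 30 min and 103% at 1 h. Nolc1, a nucleolar phosphoprotein gene, fell by 0.40 on the log2 scale in the same way. With the libraries scaled to total reads 26 were lower, and with only the 5 libraries 19. Ribosomal protein genes showed 1 call in 75 tested genes, Rpl13a (-0.23), with a list median of -0.04 and 70 of 75 held.

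Immediate early genes, which respond to growth signals within minutes, had 12 of 32 tested members lower (37.5%, against 10.2% of all tested genes) and 1 higher, Atf3 (0.81, named after its value was seen), with a list median of -0.13. Egr1, a zinc finger factor gene, had 2300, 2294 and 2155 normalized counts at 1 h, against 3903 and 3942 at 30 min, a difference of -0.80 ± 0.06 (SE, adjusted p = 7.5e-13). Egr1 stood at 138% of DMSO at 15 min, 105% at 30 min and 60% at 1 h. Fosl2 (-0.70), Dusp2 (-0.83) and Maff (-0.53) were also lower. Several of the 12 had few reads, and 8 falls were called with edgeR, 7 with DESeq2 and 4 with only the 5 libraries.

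Heat shock and chaperone genes had 8 of 29 lower (27.6%, against 10.2% of all tested genes), among them Hsp90b1 (-0.32) and Hsf1 (-0.32), and 1 higher, Hspa4l. Unfolded protein and amino acid stress genes had 10 of 35 lower (28.6%), such as Pdia6 (-0.41) and Hyou1 (-0.41), and 6 higher (17.1%, against 7.95% of all tested genes), but 5 and 1 with only the 5 libraries. Elongation control genes had 6 of 41 lower (14.6%, against 10.2%), led by Aff1 (-0.72), a scaffold gene of the super elongation complex, and 1 higher (2.44%, against 7.95%). The 6 became 4 with edgeR or DESeq2 and 3 with only the 5 libraries. The NF-kB and interferon list had 1 of 29 lower (3.45%, against 10.2%), Nfkb1 (-0.60), and 3 higher (10.3%, against 7.95%), among them Ddx58 (0.53) and Usp18 (0.39).

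The genes of the targets of A485 changed little. Ep300 had 3086, 3216 and 3224 normalized counts at 1 h, against 3003 and 3228 at 30 min, a difference of 0.03 with a 95% confidence interval of -0.07 to 0.12. Crebbp, which encodes CBP, had 3451, 3322 and 3269 at 1 h, against 2992 and 2995 at 30 min, a difference of 0.16 ± 0.04 (SE, adjusted p = 0.0053). Brd2 (-0.11, interval -0.23 to 0.02) was held. Hexim1 (-0.21, interval -0.51 to 0.08) and Kit (-0.47, interval -0.94 to -0.01) did not pass the test and had wider intervals. Hba-a1 is not in the gene table.

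The cells that received dTAGV1 together with A485 gave the same interval in libraries that share no sample with the 5 above. There 1168 genes fell (9.27%) and 1042 rose (8.27%), and 729 and 608 without replicate 2 of that 30 min group. Scaled to total reads, the counts were 973 lower and 1382 higher, so that here too the balance of falls and rises turned with the scaling. Of the 1285 genes that fell with A485 alone, 595 also fell (46.3%, or 50.9% of the 1168) and 11 rose. Of the 1002 that rose, 402 also rose (40.1%, or 38.6% of the 1042) and 6 fell. Across all 12597 genes the 2 sets of differences had a Pearson correlation of 0.305, given as a description over genes that are not independent. With dTAGV1 alone, 99 of the 1285 fell (7.70%, against 4.10% of all tested genes) while 147 rose (11.4%, against 5.64%). Of the 1002 that rose with A485, 86 rose with dTAGV1 alone (8.58%) and 43 fell (4.29%).

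Slc22a3 fell alike with both agents, with 465, 539 and 457 normalized counts at 1 h, against 2033 and 2054 at 30 min, a difference of -2.07 ± 0.06. The 2 differences did not pass a test of their own difference (0.17 ± 0.09, adjusted p = 0.38). Siglec1 rose with both agents (0.98 ± 0.15) and with dTAGV1 alone (1.18 ± 0.13), and the difference from the change with A485 was 0.17 ± 0.20 against dTAGV1 alone (adjusted p = 0.62). Slc6a2 likewise rose with dTAGV1 alone (0.92 ± 0.23). Over all genes 2010 differed in their change between A485 and dTAGV1 alone (16% of those tested), and all 12 of the largest falls were among them, as were 5 of the 12 largest rises. Without A485 30 min replicate 1 the count was 1107.

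The change with A485 differed from that with dTAGV1 and A485 in 145 genes (1.15% of those tested), 98 with a lower change with A485 alone (0.778%) and 47 with a higher one (0.373%). Cbfa2t3 was among them. With both agents it had 4084, 4829 and 4603 normalized counts at 1 h, against 4884 and 4354 at 30 min, and the groups overlapped (-0.04 ± 0.12). The difference between the 2 changes was -1.96 ± 0.17 (adjusted p = 7.7e-09). With dTAGV1 alone Cbfa2t3 rose by 0.86 ± 0.11 on the log2 scale.

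Gfi1b, which encodes a zinc finger repressor of the erythroid and megakaryocytic lineages, likewise fell with A485 alone and not with both agents. With dTAGV1 alone its change was 0.22 ± 0.08 and did not pass the limma test (adjusted p = 0.096). With A485 alone it had 258, 369 and 378 normalized counts at 1 h, against 616 and 613 at 30 min. With both agents it had 1522, 1566 and 1525 at 1 h, against 1664 and 1413 at 30 min. The change was -0.89 ± 0.09 with A485 and 0.00 ± 0.09 with both agents, and the difference was -0.90 ± 0.13 (adjusted p = 0.00015). The level with both agents was above that with A485 alone at either time in every library. For Cbfa2t3 and Gfi1b the difference passed in each alternative fit that was run.

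Add2 (-0.52), Tmod1 (-0.47), Sh2d4b (-0.34) and Myb (-0.30) also differed, and each of these calls was lost when 1 library or more was left out. In these 4 genes the change had the same sign in both arms. The count of 145 was 41 without A485 30 min replicate 1, 78 without A485 30 min replicate 2, 42 without dTAGV1 and A485 1 h replicate 2, 38 without dTAGV1 and A485 30 min replicate 2 and 306 without replicate 1 of that group.

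**Figure D4:**
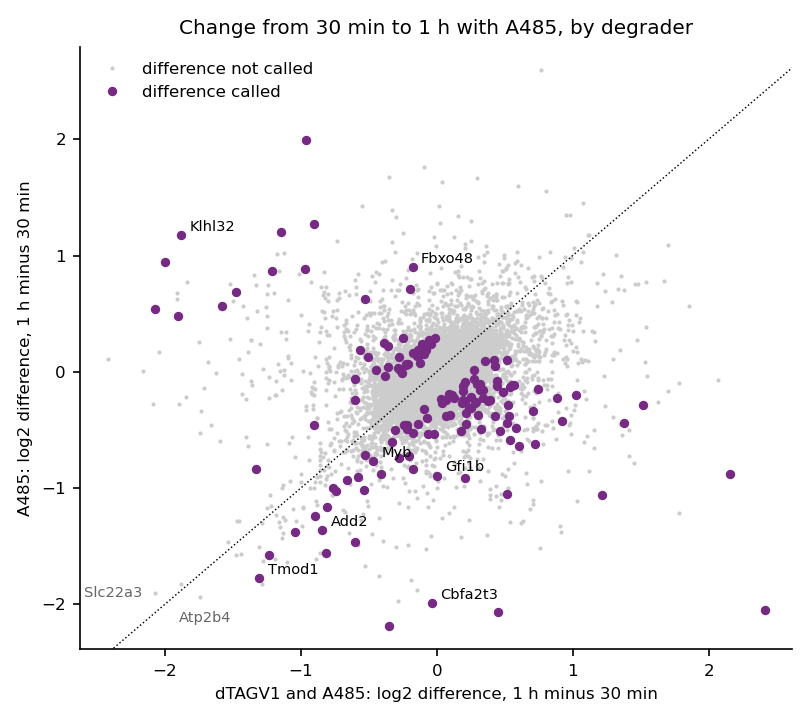
Log2 difference (1 h minus 30 min) of each tested gene with A485 on the vertical axis, and with dTAGV1 and A485 on the horizontal axis. Purple points passed the test of the difference between the 2 changes, and the dotted line marks equal changes; Cbfa2t3 and Gfi1b lie near 0 on the horizontal axis and below 0 on the vertical one.

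Regulatory elements were followed at dREG sites, which are transcribed promoters and enhancers found from the run-on signal itself, with coordinates in mm39. Of 21312 tested sites, 424 fell between 30 min and 1 h (1.99%) and 142 rose (0.666%). These counts rest on the spread shared by all 28 libraries. They were 153 lower and 22 higher with edgeR on the recovered reads, and 26 lower and 0 higher with only the 5 libraries in the fit, where DESeq2 with all groups called 154 and 34. They were 198 and 107 without A485 30 min replicate 1, 175 and 76 without replicate 2 of that group, and 637 and 218 without A485 1 h replicate 2, and 635 and 226 without A485 1 h replicate 3. The libraries held 857558 to 2131083 reads over sites at 1 h and 1861551 to 2182722 at 30 min, and 16947 sites (79.5%) were unresolved, so that most sites could not be called either changed or held.

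Of the 5 sites with the largest falls among those with a mean of at least 50, 3 lay close together on chromosome 11. The site at chr11:72382461-72382880 had 27.4, 23.9 and 20.8 normalized counts at 1 h, against 258 and 252 at 30 min, a difference of -3.36 ± 0.16 (SE, adjusted p = 7.65e-18). The neighbouring sites at chr11:72383861-72384500 and chr11:72384781-72385190 had differences of -3.34 ± 0.24 and -3.07 ± 0.23. None of the 3 had been called at 15 min. With dTAGV1 and A485 the first of them fell by 3.39 on the log2 scale, and with dTAGV1 alone its difference was -0.24.

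A site at chr16:92514201-92515490 fell by 3.25, with 23.9, 22.5 and 27.7 at 1 h, against 268 and 221 at 30 min. A site at chr8:123068711-123069300, which had been higher than DMSO at 15 min, had 44.5, 21.1 and 22.5 at 1 h, against 243 and 252 at 30 min (-3.12 ± 0.18). It fell by 1.95 with both agents. The groups were separated at each of these sites. No annotation of build mm39 was used here, so the sites are given by position alone. Of the 424 sites that fell, 119 lay within 10 kb of another that fell, and of the 142 that rose, 2 lay within 10 kb of another that rose. These sets differ in size, and 63.1% of all tested sites had another tested site within 10 kb, so the counts are not compared.

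Of 3420 sites that were lower than DMSO at 15 min (16% of those tested), 102 were still falling (2.98%, against 1.99% of all tested sites), 39 were recovering (1.14%, against 0.666%) and 727 held (21.3%, against 17.8%). The largest further fall was at chr4:149729471-149730610, with 34.2, 18.3 and 24.2 normalized counts at 1 h, against 143 and 121 at 30 min (-2.36 ± 0.20). At chr8:121292681-121293010 the difference was -1.69 ± 0.19 with A485 but -0.19 ± 0.19 with both agents, and the test of that difference passed (adjusted p = 0.0090). The site at chr12:102321101-102322800 was held, with 311, 250 and 263 at 1 h, against 287 and 301 at 30 min. Its level was 17.4% of DMSO at 15 min, 13.8% at 30 min and 12.9% at 1 h.

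The sites that rose were weaker. The first was at chr11:24048861-24049390, with 109, 71.8 and 100.3 normalized counts at 1 h, against 42.1 and 37.8 at 30 min (1.19 ± 0.20, adjusted p = 0.00026). Others were at chr3:96757801-96758350 (1.18), chr5:75904711-75905840, chr16:8491261-8492040 (1.13), chr18:24613131-24613640 (1.13) and chr8:61409911-61410690 (0.98). None of these 6 was called with only the 5 libraries. In the libraries with both agents, 146 of the 424 sites that fell also fell (34.4%, against 1.87% of all tested sites), whereas 4 of the 142 that rose also rose (2.82%, against 1.26%). The change with A485 differed from that with both agents at 52 sites (0.244% of those tested) and from that with dTAGV1 alone at 422 (1.98%).

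**Figure D5:**
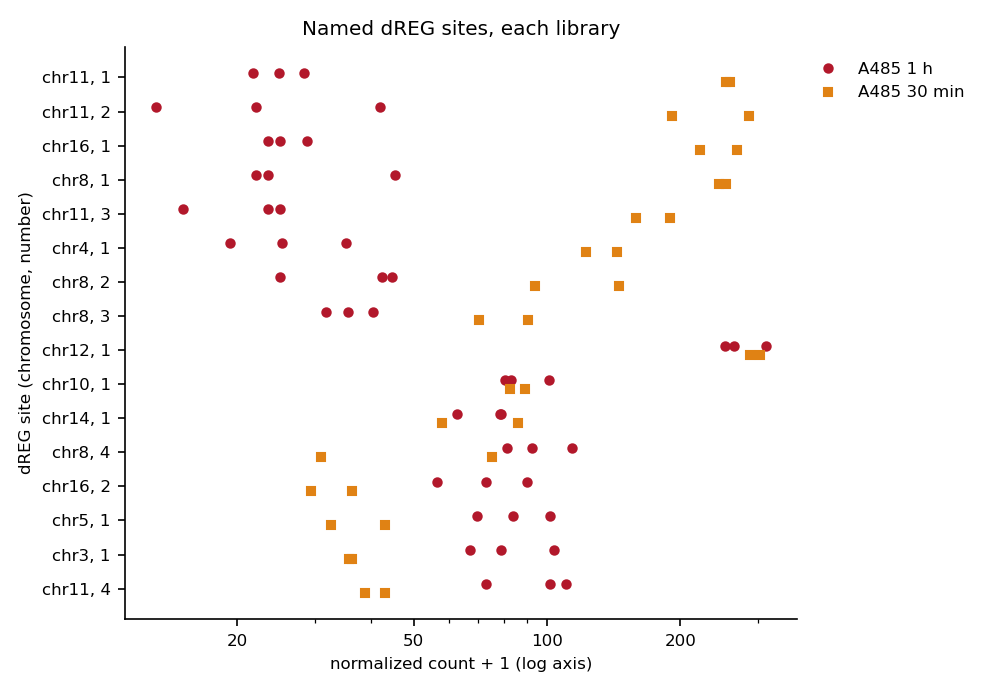
Normalized counts plus 1 (log axis) at 16 named dREG sites in each library of A485 at 1 h (red circles) and 30 min (orange squares), labelled by chromosome and number. The 8 sites at the top lie lower at 1 h in every library, the 3 sites below them overlap, and the rest lie higher at 1 h.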

How the data were processed

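PRO-seq libraries were mapped and counted by the authors, who deposited 1 table over transcripts and 1 over dREG sites. Their values are normalized counts, a signal that the authors made by dividing reads by a size factor per library. Per the submitters' processing notes, the tools included DESeq2 1.46.0, featureCounts 2.0.1, HOMER, bedtools, Bowtie2 2.2.2 and SAMtools 1.16.1, with mouse build mm39 and fly build dm3. How reads of the fly build entered the size factors is not given in the sources used here. Dividing by the value of 1 read gave whole reads for the deposited signal values within a tolerance of 0.1.

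From these values, 1 transcript per symbol (the highest mean) was kept, and features with a mean of at least 10 over the 28 libraries were tested on log2(normalized count + 1) with limma 3.58.1 (lmFit and eBayes with trend, R 4.3.3). All 10 groups entered the fit, and p-values were adjusted by Benjamini-Hochberg at 0.05 over all features tested. The fit was tested on simulated data. In a simulation of A485 1 h against A485 30 min over 12597 genes, 49 of 50 genes lowered by 1 log2 unit and 50 of 50 raised by 1 were recovered. Over 21312 sites, 46 of 50 lowered by 1 and 45 of 50 raised by 1 were recovered. Changes were placed only in features with a mean of at least 50 at A485 30 min. None was smaller than 1 log2 unit, so the recovery of smaller changes was not tested. Alternatives used edgeR 4.0.16 and DESeq2 1.42.0 on the recovered reads, other pseudocounts, filters and scalings, a replicate block and the removal of single libraries. Libraries held between 7453718 and 61981001 reads over transcripts.

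Genes were named by rule: the 12 largest changes in each direction among called genes whose groups did not overlap and whose mean over the 5 libraries was at least 50, up to 4 called members per list, 6 per early class, and 15 regulators and markers whatever their values. Other genes are marked as named after their values were seen. The members and the gene lists were chosen with earlier results of these data known. Samples whose labels conflict were left out, and some genes that the rule names are not reported here.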

Additional observations from a re-analysis of the deposited data

Results flagged for a closer look

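The change from 30 min to 1 h was compared between arms by a test of the difference itself. It differed between A485 and dTAGV1 with A485 in 145 genes and 52 dREG sites, and between A485 and dTAGV1 alone in 2010 genes and 422 sites. Among the genes named here, the log2 change with A485 minus that with dTAGV1 and A485 was -1.96 for Cbfa2t3, -0.90 for Gfi1b, -0.52 for Add2, -0.47 for Tmod1, -0.34 for Sh2d4b and -0.30 for Myb. It was 3.05 for Klhl32, whose 3 libraries at 1 h of A485 ranged from 165 to 465 normalized counts, and 1.08 for Fbxo48.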

How the results depend on the processing

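Of 102 named genes that were called, 56 kept their call and direction in every alternative run for them. No named gene or site that was called changed its sign, but the majority direction of the gene calls turned with the other scalings, to 1101 lower and 1376 higher with A485 and to 973 and 1382 with dTAGV1 and A485 when scaled to total reads. With only the 5 libraries in the fit, 624 genes were lower and 536 higher, 293 early fallen genes were still falling and 189 recovering, and of sites 26 were lower, 0 higher, 1 early fallen site still falling, 0 recovering and 238 held. In the 10 libraries of the 4 groups numbered 1 to 3, the replicate block gave 658 genes lower, 476 higher, 308 still falling and 177 recovering, 681 lower and 445 higher with dTAGV1 and A485, and of sites 49 lower, 1 higher, 3 still falling, 0 recovering and 286 held. The same libraries with no block, an alternative chosen after seeing the data, gave 640 genes higher with dTAGV1 and A485, and of sites 57 lower, 4 higher, 5 still falling, 0 recovering and 421 held. A485 libraries numbered 1 at 30 min and 1 h correlated at 0.098 in their deviations from the group means. With 2 libraries at 30 min these deviations mirror each other, so the value cannot settle whether the replicate numbers pair the libraries. edgeR gave 153 sites lower, 22 higher, 26 still falling and 5 recovering, DESeq2 154, 34, 25 and 10, and a mean of at least 50 gave 239 lower and 77 higher. The cause of these moves was not tested.

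Leaving out 1 library at a time gave 691 to 1270 genes lower, 537 to 987 higher, 356 to 553 early fallen genes still falling, 228 to 378 recovering and 2151 to 2218 held. For sites the ranges were 175 to 637 lower, 76 to 226 higher, 34 to 186 still falling, 26 to 76 recovering and 349 to 674 held. With dTAGV1 and A485, 729 to 991 genes were lower and 608 to 829 higher. The changes differed from those with both agents in 38 to 306 genes and from those with dTAGV1 alone in 1107 to 2072. The longest transcript in place of the highest was not run. With 2 libraries at 30 min, sites of low count are limited by depth.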
